A study of Botryllus schlosseri with 27 samples.

Results

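The contigs described here are those whose RNA level was higher at each later age in every line of *Botryllus schlosseri* that was sequenced. A contig is an assembled sequence of expressed tags and stands for a transcript or a piece of one. The reads of the 3 libraries of each line and age were summed, which gave 9 sums, and each sum was scaled by its total to counts per 1000000 reads (CPM). A contig was kept when it had at least 0.5 CPM in all 9 sums and when its level at 2 years lay above that at 4 months, and its level at 3 years above that at 2 years, in all 3 lines. Of the 50106 contigs, 83 met this rule. They were ranked by the smallest log2 ratio of 3 years over 4 months among the 3 lines. The rule kept at most 150 contigs, so all 83 were taken and the limit on ranks removed none. Digestive enzyme homologs were to be left out by name, and none of them reached the list. The contigs were thus selected on their values at the 3 ages, and every age value below is a description of that choice without a test.

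RNA was isolated from whole colonies at blastogenic stage B2 and sequenced as paired-end poly-A libraries. Lines SB825, SMG (also written SMGO) and SMH were each sampled at 4 months, 2 years and 3 years, with 3 libraries per line and age and 27 in all. The study calls its colonies wild type, the labels name no treatment, and each line and age is given as 1 genotype: the 2-year-old colonies are F1 offspring of the 3-year-old ones and the 4-month-old colonies F1 offspring of the 2-year-old ones. Age and generation therefore change together in every line and cannot be told apart. The study's methods describe 3 systems per sample, a system being a group of zooids around a shared siphon. The study counts the 3 libraries of a genotype as biological replicates, and whether they came from separate colonies or from systems of the same colony is not given.

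*Botryllus* is a colonial tunicate, an invertebrate chordate whose colonies consist of genetically identical zooids embedded in a tunic and joined by a shared blood vasculature. Its zooids are replaced by buds in repeated cycles, while the colony and its vessels persist and age. A whole colony holds gut, muscle, gonads, tunic, vessels and circulating blood cells, which include phagocytes. In such bulk RNA fewer cells of a type and less RNA per cell cannot be told apart.

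Depth per library ran from 31013902 to 48426188 reads (median 37366126) and per sum from 109038294 to 126872964 reads, so that 0.5 CPM in the smallest sum was worth 54.5 reads. Libraries of a sum differed by more than sampling noise in every sum. Taken on read pairs, the chi-square per degree of freedom was 69.1 in SMG at 4 months, against 6.49 to 30.3 in the other 8. Homologs of gut enzymes, tallied as a marker list of 74 contigs with 47 at or above the minimum, summed to 516 to 1865 CPM at 4 months, 2620 to 9318 CPM at 2 years and 5207 to 5768 CPM at 3 years. Blood cell homologs (24 contigs, 10 above the minimum) summed to 92.3 to 97.2 CPM, 525 to 689 CPM and 477 to 965 CPM at these ages, and sperm and axoneme homologs (34 contigs, 3 above the minimum) to 4.80 to 101 CPM, 183 to 429 CPM and 82.8 to 317 CPM. Muscle homologs (5 contigs, 1 above the minimum) summed to 81.1 to 253 CPM, 51.8 to 140 CPM and 24.0 to 102 CPM, and ribosomal protein homologs (28 contigs, 1 above the minimum) to 6421 to 16660 CPM, 1019 to 8795 CPM and 1512 to 6162 CPM. The 5 marker lists draw on contigs that the study listed for differing between old and young libraries. Their levels by age are thus no independent measure of tissue content. No contig of these 5 marker lists was among the 83. None of the 5 lists had the rising order of the 83 contigs in all 3 lines. The gut list had it in SMG only, with its highest sum at 2 years in SB825 and SMH, the blood cell list had it in SB825 and SMG but not in SMH, the sperm and axoneme list was highest at 2 years in every line, and the muscle list was in falling order in every line. Their part in the members' values was not tested.

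The rising order was less common than the falling order in SB825, in SMH and over all 3 lines together, but not in SMG. Of 22611 contigs with at least 0.5 CPM in all sums, 2300 were in rising order and 7690 in falling order in SB825. In SMG the counts were 4208 rising and 4103 falling, and in SMH 1733 rising and 9007 falling. In all 3 lines together 83 contigs were in rising and 841 in falling order. The minimum decided membership for many contigs, since 297 had the rising order in all lines when only a read in every sum was asked. The members just inside it, looked up by their lowest sum, were Bot_c22797, CAP3_round1_contig_1590 and Bot_c29137, with lowest sums of 0.508, 0.526 and 0.542 CPM. Just outside it were Bot_c21044 and Bot_rep_c53439, both with a lowest sum of 0.489 CPM, and Bot_c550 with 0.471 CPM.

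The scaling decided membership as well. With TMM factors, which scale libraries to the bulk of contigs rather than to their totals, 188 contigs had the rising and 666 the falling order, and 41 of the 83 members kept the rising order, 40 of them at 0.5 CPM or more. The order was lost most often between 2 and 3 years in SMG (33 members) and between 4 months and 2 years in SB825 (14 members). With median-of-ratios factors 165 contigs were in rising and 762 in falling order, and 43 members kept theirs, 42 of them at the minimum. All 83 members stayed higher at 3 years than at 4 months in all 3 lines under both scalings. Nothing is read from that count. The members were chosen on this difference, and TMM factors were lower at 3 years than at 4 months in every line, which widens it. They were 1.18 against 1.28 in SB825, 0.915 against 0.955 in SMG and 0.779 against 0.935 in SMH. Median-of-ratios factors were higher at 3 years only in SMG, at 0.927 against 0.874. Of the 30 members named by rule below, 16 kept the full order under both scalings. When library 1, 2 or 3 of every sum was left out, 48, 50 and 42 members kept the order and the minimum.

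**Figure D1:**
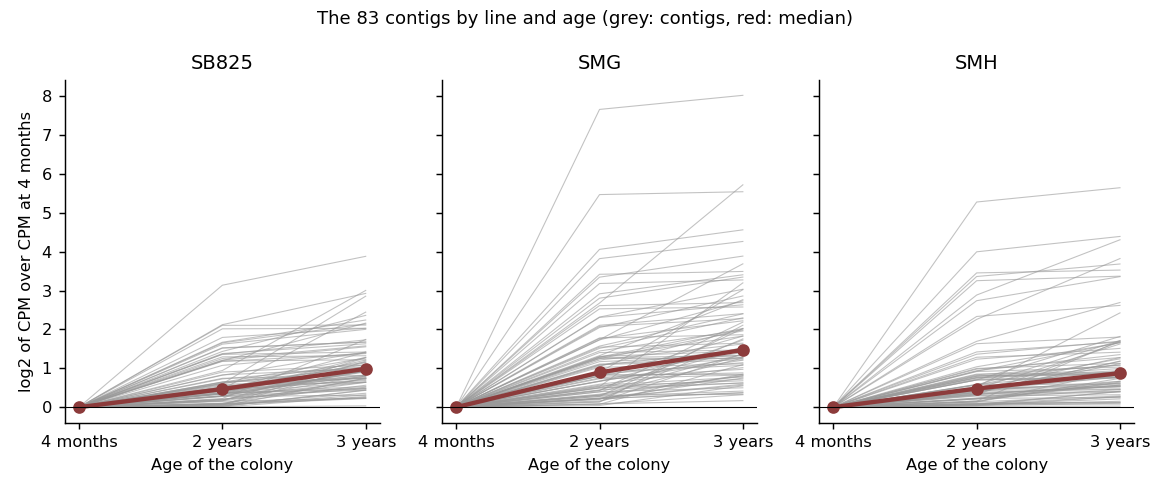
Level of each of the 83 contigs at 4 months, 2 years and 3 years as log2 of its CPM over its CPM at 4 months, in SB825, SMG and SMH. Grey lines are contigs and the red line is their median, which reached 0.99 in SB825, 1.47 in SMG and 0.88 in SMH at 3 years; no line falls, because the contigs were chosen for that.

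The 83 contigs had low CPM on the whole, and CPM takes no account of contig length. Their median level over the 9 sums was 3.77 CPM, against 8.15 CPM for the contigs above the minimum. Of the members, 53 averaged under 5 CPM, 7 over 50 CPM and 3 over 100 CPM. The smallest count of a member in any sum was 56 reads, and fewer read pairs.

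SMG held the widest differences between ages. The median member was 2.78-fold higher at 3 years than at 4 months in SMG, with log2 ratios of 0.17 to 8.03. In SB825 the median was 1.98-fold with log2 ratios of 0.03 to 3.88, and in SMH it was 1.83-fold with log2 ratios of 0.03 to 5.65. The same ratio over the 22611 contigs had a median log2 of -0.43 in SMG, -0.22 in SB825 and -0.40 in SMH. At least a 2-fold ratio was reached by 60 members in SMG, 40 in SB825 and 34 in SMH, and by 19 members in all 3 lines. Only Bot_rep_c48716 and CAP3_round1_contig_300 reached 4-fold in all 3, and 14 members stayed under 1.2-fold in at least 1 line.

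By the rule the lowest of a member's 9 sums is at 4 months. It was SMG at 4 months for 44 members, SMH at 4 months for 27 and SB825 at 4 months for 12, beside 19.6%, 8.92% and 5.84% of the 22611 contigs, which fall in the same order. The highest sum was SB825 at 3 years for 39 members, SMG at 3 years for 37 and SMH at 3 years for 7. The 83 contigs made up 1074.9 CPM in SMG at 4 months, of which CAP3_round1_contig_9658 alone made up 788 CPM. Without that contig the others summed to 287 CPM, 1302 CPM and 1772 CPM at 4 months, 2 years and 3 years in SMG, to 606 CPM, 929 CPM and 1428 CPM in SB825, and to 601 CPM, 1227 CPM and 1495 CPM in SMH.

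With CPM scaled by totals, the part of the difference reached by 2 years varied between members and lines. Expressed as a share of the log2 difference between 3 years and 4 months, the part reached by 2 years had its highest median in SMG, 71.6%, against 67.0% in SMH and 56.3% in SB825. Over the 22611 contigs the median log2 of 2 years over 4 months was -0.67 in SMG, -0.13 in SMH and 0.02 in SB825. That of 3 years over 2 years was 0.20, -0.29 and -0.26 in the same order. Under TMM scaling 33 members no longer rose from 2 to 3 years in SMG. By totals, over 50% was reached by 2 years for 57 members in SMG, 56 in SMH and 49 in SB825. Only 19 members passed 50% in all 3 lines and 3 stayed below it in all 3, namely Bot_c1729, Bot_c20884 and Bot_c2307, of which the first and the last were looked up after their values were seen. The other 61 were early in some lines and late in others. The libraries at 3 years lay above those at 2 years without overlap for 38 members in SB825, 42 in SMG and 17 in SMH. Many shares thus rest on steps within the spread between libraries. CCAO6124.g1, with the highest median share (93.9%), had 1.69, 1.71 and 2.29 CPM at 4 months, 2 years and 3 years in SB825, but 1.45, 3.46 and 3.46 CPM in SMG. Bot_rep_c58153, with the lowest median share (18.9%), had 1.25, 1.42 and 2.47 CPM in SB825 and 0.961, 1.01 and 2.05 CPM in SMG, but 0.559, 1.103 and 1.36 CPM in SMH. Bot_c20884 was late in all lines, at 3.30, 3.77 and 5.77 CPM in SB825, 3.14, 3.51 and 5.66 CPM in SMG and 2.71, 2.78 and 3.28 CPM in SMH.

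**Figure D2:**
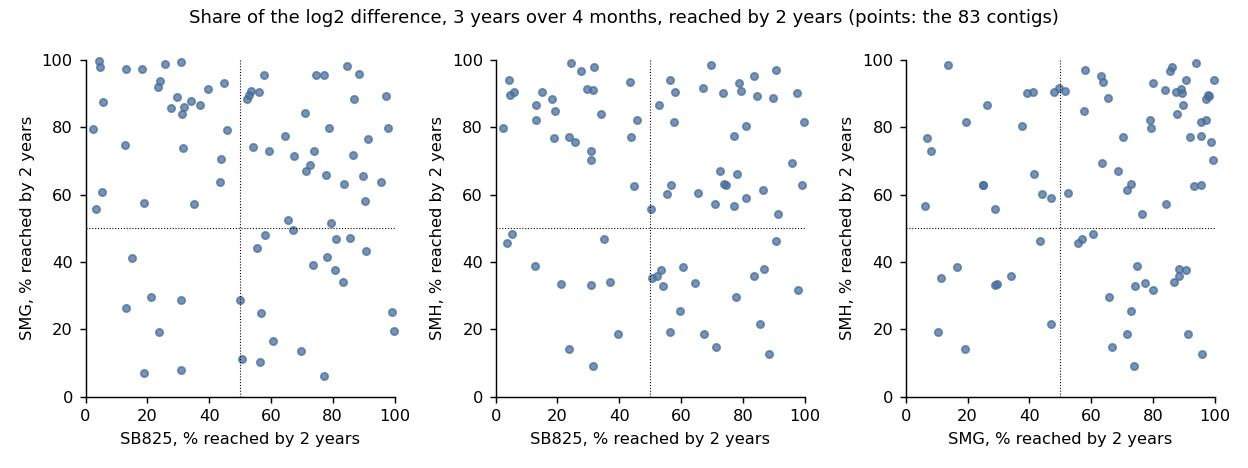
Share of the log2 difference between 3 years and 4 months that was reached by 2 years, in percent, for each of the 83 contigs (points) in pairs of lines, with dotted lines at 50%. Shares are on CPM scaled by totals. The points lie on every side of both dotted lines: 19 contigs lay above 50% in all 3 lines, 3 below it in all 3 and 61 on different sides in different lines.

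Single libraries kept the order of the sums for part of the members only. The 3 libraries at 3 years lay above all 3 at 4 months for 69 members in SB825, beside 19.0% of the 22611 contigs, for 73 in SMG, beside 25.1%, and for 62 in SMH, beside 13.5%. In all 3 lines this held for 49 members, beside 2.61% of the contigs. The full order, with the libraries of no age overlapping those of the next, was seen for 23 members in SB825 (2.21% of the contigs), 22 in SMG (4.27%) and 8 in SMH (0.942%). It was seen in all 3 lines for 3 members, which are the 0.0133% of the contigs that have it. These counts follow from how the members were chosen, and nothing is read from their distance to the background. For 45 members the full order held in no line. The SD of log2 CPM between libraries of a sum had a median of 0.32 over the members and ran from 0.14 to 0.90.

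The 3 contigs in full order in every line were Bot_c2279, Bot_rep_c45860 and CAP3_round1_contig_5578. Bot_rep_c45860 matches human Ficolin-1, a secreted lectin that binds sugars on microbes and starts the complement cascade in mammals, while its *Ciona* match is an axonemal dynein heavy chain, so its identity is uncertain. In SB825 its libraries had 2.03, 3.98 and 2.32 CPM at 4 months, 6.50, 6.28 and 6.18 CPM at 2 years and 6.51, 7.67 and 7.60 CPM at 3 years. In SMG they had 0.874, 0.636 and 0.627 CPM, then 2.51, 2.68 and 1.85 CPM, then 7.89, 8.79 and 10.4 CPM at these ages. In SMH they had 1.16, 1.76 and 1.202 CPM, 1.78, 1.97 and 2.35 CPM, and 8.60, 6.98 and 7.26 CPM. The 2 lowest ages were separated by a narrow gap in SMH, and the 2 highest by a narrow gap in SB825. The log2 ratio of 3 years over 4 months was 1.38, 3.69 and 2.43 in SB825, SMG and SMH.

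CAP3_round1_contig_5578 has no homolog name. Its libraries in SB825 had 50.5, 44.0 and 54.2 CPM at 4 months, 63.5, 60.5 and 57.0 CPM at 2 years and 73.2, 74.4 and 85.8 CPM at 3 years. In SMG they had 33.2, 27.8 and 33.8 CPM, then 74.8, 65.2 and 85.7 CPM, then 125, 128 and 117 CPM. In SMH they had 2.19, 1.76 and 2.07 CPM, then 69.5, 88.9 and 69.2 CPM, then 103, 103 and 91.9 CPM. The young SMH libraries thus stood far below every other library, with a log2 ratio of 5.65 between 3 years and 4 months in SMH, against 0.64 in SB825 and 1.96 in SMG. It had the narrowest spread between libraries of all members, with an SD of 0.14 on the log2 scale.

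Bot_c2279, also without a name, had 23.6, 17.9 and 25.2 CPM at 4 months, 31.5, 30.3 and 29.1 CPM at 2 years and 54.7, 59.4 and 64.2 CPM at 3 years in the SB825 libraries. In SMG the libraries had 6.35, 10.2 and 17.4 CPM, then 81.4, 71.5 and 88.9 CPM, then 117, 126 and 110.2 CPM. In SMH they had 4.90, 4.051 and 5.53 CPM, then 65.6, 93.4 and 66.0 CPM, then 103, 104 and 94.4 CPM. In SB825 the larger step was the later one, with 31.4% of the log2 difference reached by 2 years, while in SMG and SMH 83.8% and 91.0% were reached by then.

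**Figure D3:**
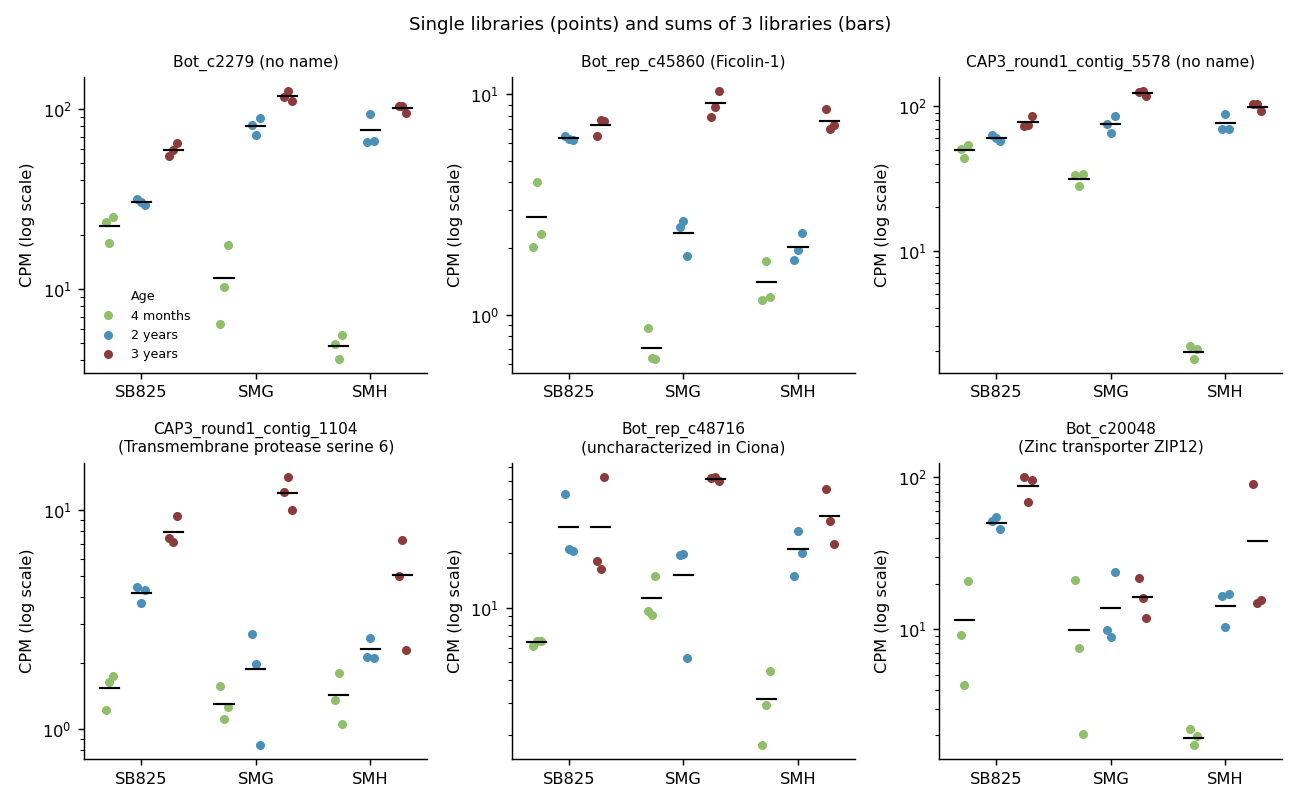
CPM (log scale) of 6 contigs in the 27 libraries, grouped by line and coloured by age from 4 months on the left to 3 years on the right; points are single libraries and bars the sums of 3 libraries. In the upper row the libraries of the 3 ages do not overlap in any line, while in the lower row they do, most plainly for the zinc transporter homolog Bot_c20048, for which 1 SMH library at 3 years (90.3 CPM) stood far above the other 2 (14.8 and 15.6 CPM).

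The contigs ranked first had the largest minimum over the lines rather than the tightest libraries. Bot_rep_c48716, whose only match is an uncharacterized *Ciona* protein, ranked first with 6.46, 27.8 and 27.9 CPM at 4 months, 2 years and 3 years in SB825, 11.3, 15.2 and 51.7 CPM in SMG and 3.15, 21.1 and 32.4 CPM in SMH. Its step from 2 to 3 years was small in SB825, where the libraries had 18.1, 16.5 and 53.0 CPM at 3 years and 42.8, 21.1 and 20.5 CPM at 2 years and overlapped. CAP3_round1_contig_300, without a name, had 3.01, 9.26 and 12.1 CPM in SB825, 0.888, 5.69 and 46.9 CPM in SMG and 1.63, 7.79 and 23.1 CPM in SMH, a 4.01-fold, 52.8-fold and 14.2-fold ratio of 3 years over 4 months. Its SMH libraries at 3 years had 21.0, 39.4 and 4.98 CPM, so the lowest of them lay below all 3 libraries at 2 years.

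Several first-ranked contigs had names of membrane or secreted proteins. CAP3_round1_contig_1104 matches Transmembrane protease serine 6, a membrane-bound serine protease that curbs hepcidin and so controls iron uptake in mammals. It had 1.54, 4.17 and 7.93 CPM in SB825, 1.31, 1.89 and 12.0 CPM in SMG and 1.42, 2.31 and 5.03 CPM in SMH at the 3 ages. CAP3_round1_contig_2427 matches Tetraspanin-18, of a family of membrane organisers, and had its step mainly after 2 years in SB825 and SMH, with 1.52, 2.93 and 12.2 CPM in SB825, 1.11, 2.34 and 3.06 CPM in SMG and 1.95, 2.17 and 6.37 CPM in SMH. Bot_c6605 matches OTU domain-containing protein 4, a deubiquitinating enzyme, and had most of its difference by 2 years, with 1.03, 2.67 and 3.18 CPM in SB825, 0.671, 3.88 and 4.01 CPM in SMG and 0.559, 2.82 and 3.44 CPM in SMH. Bot_c6605 lost its order under TMM and median-of-ratios scaling, as did CAP3_round1_contig_5208, an uncharacterized *Ciona* protein with 1.56, 4.97 and 7.38 CPM in SB825, 1.14, 3.93 and 4.16 CPM in SMG and 1.39, 2.86 and 4.38 CPM in SMH. The other 8 of the 10 contigs ranked first kept it.

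Names were known for only part of the members. The homolog names come from the part of the study's list of contigs differing between old and young libraries that was given, 1998 contigs, and 24 of the 83 members are in it: 12 have a human name, 4 a *Ciona* name only and 8 no name. Since that list was chosen on the same libraries, it is no independent evidence of any direction. Of the first 20 ranks 17 are in it, and of the later 63 ranks 7 are.

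The complement and matrix lists held 4 of the named members, the ficolin homolog above and 3 contigs with sushi or CUB names. CUB and sushi domains are short protein modules shared by complement factors, their regulators and adhesion molecules of the cell surface. Of 12 contigs with a CUB or sushi name, 3 had 0.5 CPM in all sums, and all 3 were members. CAP3_round1_contig_3804 (CUB and sushi domain-containing protein 1, a large membrane protein that restrains complement in mammals) had 2.31, 5.93 and 6.18 CPM in SB825, 2.83, 6.91 and 11.5 CPM in SMG and 2.68, 5.14 and 6.84 CPM in SMH at 4 months, 2 years and 3 years. Bot_c10177, named for sushi, von Willebrand factor A, EGF and pentraxin domains, a secreted adhesion protein needed for lymphatic vessels in mice, had 0.935, 2.17 and 2.75 CPM in SB825, 1.05, 3.00 and 5.18 CPM in SMG and 1.27, 1.77 and 3.93 CPM in SMH. Bot_c25595 carries the same name and had 0.990, 2.27 and 4.44 CPM in SB825, 2.19, 3.84 and 7.80 CPM in SMG and 2.90, 4.07 and 5.09 CPM in SMH. The log2 ratio of 3 years over 4 months ran from 0.81 to 2.30 over these 3 contigs and 3 lines, and all 3 kept their order under both other scalings. The *Ciona* matches of these 3 contigs carry the other name of the pair, so the 2 names do not separate them.

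Below the minimum, Bot_c7610 (CUB and sushi domain-containing protein 2) and CAP3_round1_contig_9351 (CUB and sushi domain-containing protein 1) also had the rising order in all 3 lines, and they are named here after their values were seen. Bot_c7610 had 0.312, 1.91 and 8.39 CPM in SB825, 0.961, 1.08 and 18.5 CPM in SMG and 0.525, 0.886 and 3.74 CPM in SMH. CAP3_round1_contig_9351 had 4.81, 5.48 and 8.62 CPM in SB825, 0.0906, 2.55 and 7.10 CPM in SMG and 2.49, 4.14 and 4.63 CPM in SMH, so that it failed only in SMG at 4 months. Contigs with the same name can be pieces of 1 transcript or close paralogs that share reads, and their sequences were not used here. Across the 27 libraries Bot_c10177 and CAP3_round1_contig_3804 also varied together within sums, with r = 0.90 after removal of the group means (18 degrees of freedom), a description that shares library and depth.

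Transport and uptake were represented by 2 members. Bot_c20048 matches Zinc transporter ZIP12, which brings zinc into cells, and had 11.6, 50.4 and 88.0 CPM in SB825, 9.84, 13.9 and 16.3 CPM in SMG and 1.93, 14.3 and 38.3 CPM in SMH. It had the widest spread between libraries of all members (SD 0.90 on the log2 scale), as SMG at 4 months with 21.0, 7.58 and 2.04 CPM and SMH at 3 years with 90.3, 14.8 and 15.6 CPM show, and it lost its order under the other scalings. Bot_rep_c56596, cubilin-like in *Ciona*, an endocytic receptor of absorptive epithelia in mammals, had 4.93, 8.73 and 13.2 CPM in SB825, 2.34, 5.87 and 15.9 CPM in SMG and 6.44, 8.91 and 9.22 CPM in SMH. Its SMH libraries overlapped, with 8.70, 10.04 and 8.73 CPM at 3 years and 7.17, 10.8 and 8.21 CPM at 2 years. The other 4 cubilin contigs did not reach the minimum.

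Among receptors, 3 members had a name. CAP3_round1_contig_1707 matches the Pyroglutamylated RFamide peptide receptor, a G protein-coupled neuropeptide receptor tied to feeding in mammals, while its *Ciona* match is a somatostatin receptor. It had 3.04, 6.42 and 8.02 CPM in SB825, 1.99, 2.18 and 8.61 CPM in SMG and 3.27, 4.43 and 5.60 CPM in SMH, so the step came by 2 years in SB825 and after 2 years in SMG. CAP3_round1_contig_5109 matches the Sortilin-related receptor, which sorts cargo between Golgi and endosomes, and had 3.54, 3.803 and 5.24 CPM in SB825, 0.961, 8.73 and 9.31 CPM in SMG and 3.81, 7.61 and 8.34 CPM in SMH. CAP3_round1_contig_5231 matches Neurogenic locus notch homolog protein 2, a receptor of contact signalling between cells, though its *Ciona* match is another adhesion receptor, and had 0.825, 2.37 and 2.64 CPM in SB825, 0.671, 1.07 and 1.95 CPM in SMG and 0.898, 1.34 and 2.13 CPM in SMH. Of 5 contigs with the notch 2 name 3 reached the minimum, and 2 of these were higher at 3 years than at 4 months in all 3 lines. The other 2 of the 3 are named here after their values were seen. CAP3_round1_contig_6397 had log2 ratios of 3 years over 4 months of 2.03, 1.01 and 1.23 in SB825, SMG and SMH, though not the rising order in any line, and Bot_rep_c45034 had -7.37, -5.46 and -1.17.

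Homologs named Cholinesterase, Acetylcholinesterase or Cocaine esterase, all enzymes that split esters, showed how much the rule asked. All 7 of the 14 contigs of that name group with 0.5 CPM in every sum were higher at 3 years than at 4 months in all 3 lines, but in 6 of them the SMH sum at 3 years lay below that at 2 years. The only member was Bot_c1751, which is named Cocaine esterase and not Cholinesterase or Acetylcholinesterase. It is named here after its values were seen, with 6.97, 61.4 and 102.8 CPM in SB825, 21.5, 26.6 and 37.6 CPM in SMG and 28.8, 74.2 and 93.6 CPM in SMH. The non-member Bot_rep_c51819 (Cholinesterase), also named after its values were seen, had 20.8, 190 and 150 CPM in SB825, 50.9, 94.5 and 113 CPM in SMG and 23.0, 151 and 62.9 CPM in SMH. CAP3_round1_contig_7165, whose *Ciona* match is the uncharacterized protein LOC101242576, was the only 1 of 5 contigs of that name above the minimum, with 12.5, 50.6 and 51.1 CPM in SB825, 11.9, 16.1 and 39.5 CPM in SMG and 3.86, 12.5 and 25.0 CPM in SMH. Of the other 4, 2 also had the rising order in all lines at lower levels.

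**Figure D4:**
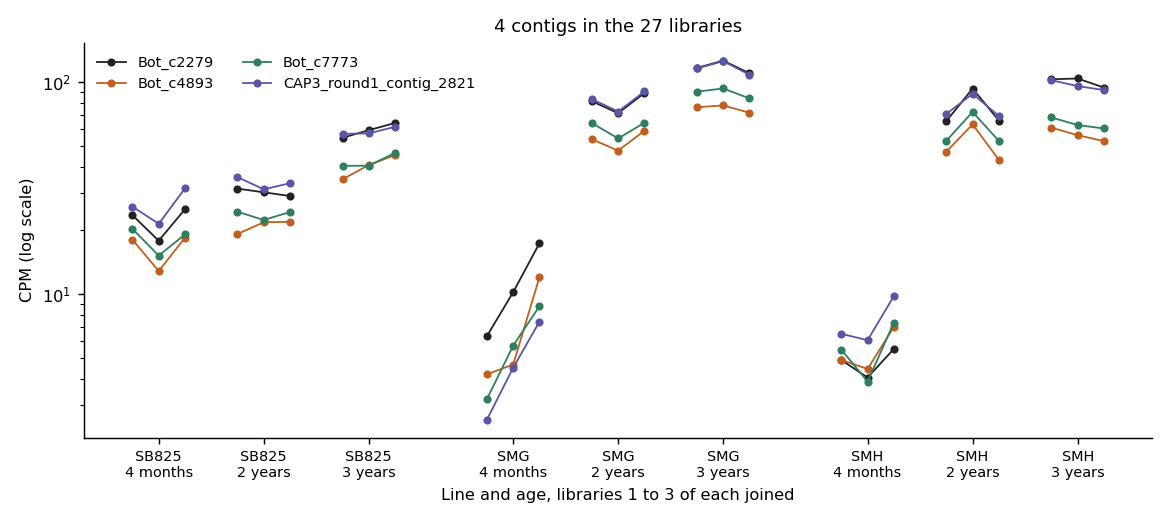
CPM (log scale) of Bot_c2279, Bot_c4893, Bot_c7773 and CAP3_round1_contig_2821 in the 27 libraries, in groups by line and age, with libraries 1 to 3 of each group joined only to show that the contigs move together; the order of libraries in a group has no meaning. The 4 contigs keep close to each other in nearly every library, with a gap between 4 months and 2 years in SMG and SMH that is wider than in SB825.

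A set of 4 unnamed members followed nearly the same course in every library. They are Bot_c2279, Bot_c4893, Bot_c7773 and CAP3_round1_contig_2821, ranked 9, 13, 16 and 17, and they were picked out after the correlations were seen. Over the 9 sums their pairwise r of log2 CPM was 0.95 to 0.998, against a median of 0.59 over all pairs of members, which share the order of ages. Within sums, after removal of the group means, r was 0.87 to 0.95, against a median of 0.14 over all pairs. Both values are descriptions, since the points share libraries and depth. CAP3_round1_contig_2821 had 26.4, 33.4 and 58.6 CPM in SB825, 4.91, 82.1 and 116 CPM in SMG and 7.51, 77.3 and 96.6 CPM in SMH. Bot_c4893 had 16.5, 21.1 and 40.1 CPM in SB825, 7.07, 53.4 and 75.05 CPM in SMG and 5.47, 52.3 and 56.7 CPM in SMH. Bot_c7773 had 18.2, 23.8 and 42.2 CPM in SB825, 6.0, 61.0 and 88.9 CPM in SMG and 5.52, 60.6 and 63.8 CPM in SMH. In SB825 the 4 reached 27.7% to 31.9% of their log2 difference by 2 years, and in SMG 83.8% to 89.0% and in SMH 91.0% to 97.9%. Whether they are pieces of 1 transcript cannot be told without their sequences.

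The most abundant members had no name. CAP3_round1_contig_9658 was the highest by far, with 681, 859 and 1278 CPM in SB825, 788, 1701 and 1914 CPM in SMG and 1215, 1408 and 1872 CPM in SMH. Bot_rep_c51667 had 134, 138 and 279 CPM in SB825, 32.6, 350 and 368 CPM in SMG and 244, 343 and 357 CPM in SMH. Bot_rep_c54631 had 69.4, 77.8 and 108 CPM in SB825, 3.55, 158 and 166 CPM in SMG and 92.7, 128 and 142 CPM in SMH. All 3 lost their order under TMM and median-of-ratios scaling, and Bot_rep_c51667 and Bot_rep_c54631 had their lowest sum in SMG at 4 months. The widest ratio of all members had the same lowest sum: CAP3_round1_contig_7148, named after its values were seen, had 157, 134 and 161 CPM in the SMG libraries at 3 years, against 0.408, 0.795 and 0.523 CPM in those at 4 months. In SB825 it had 15.3, 21.3 and 27.2 CPM and in SMH 12.3, 28.9 and 35.1 CPM at the 3 ages.

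At the other end of the ranking the order was a matter of small steps. Bot_c22279, ranked last, had 2.59, 2.77 and 4.31 CPM in SB825, 2.34, 2.48 and 2.92 CPM in SMG and 2.85, 2.89 and 2.90 CPM in SMH. Its SMH libraries at 4 months, 2 years and 3 years covered 2.52 to 2.99 CPM, 2.19 to 3.44 CPM and 2.59 to 3.26 CPM and overlapped throughout. Bot_rep_c52487 had 7.98, 8.02 and 8.17 CPM in SB825, 2.32, 6.78 and 7.27 CPM in SMG and 4.98, 5.26 and 5.27 CPM in SMH. CAP3_round1_contig_7276 had 3.94, 4.60 and 13.2 CPM in SB825, 0.798, 1.85 and 2.46 CPM in SMG and 2.30, 2.37 and 2.47 CPM in SMH. For each of these 3 contigs the libraries of different ages overlapped in at least 1 line, so their place among the members lay within the spread between libraries there.

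The 16 name lists put these members beside their groups. Of 25 lectin, complement and coagulation contigs above the minimum, 23 were higher at 3 years than at 4 months in all lines, 9, 20 and 8 had the rising order in SB825, SMG and SMH, and 3 were members. Their median log2 ratio was 1.55, 2.37 and 2.24 in these lines. Of 16 matrix and adhesion contigs 13 were higher in all lines, with medians of 1.49, 2.98 and 1.19, and 3 were members. Of 36 receptor and signalling contigs 21 were higher in all lines, with medians of 1.38, 1.41 and 0.91, and 3 were members. Of 29 transporter and channel contigs 28 were higher, with medians of 2.35, 1.39 and 1.49, and 2 were members. Membrane peptidases (16 contigs, all 16 higher in all lines) and detoxification and redox enzymes (26 contigs, 22 higher) each held 1 member. The other 10 lists held none, among them 17 lipid metabolism and 11 lysosome contigs. The lists draw on contigs that the study picked for differing between 3 years and 4 months, so their medians stand far from the -0.22, -0.43 and -0.40 of all contigs by that choice. The counts of contigs higher in all lines depend on the same choice, and nothing is read from them about a group.

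The gut list varied strongly between libraries of a sum, and some members varied with it. In SB825 at 3 years the gut enzyme homologs summed to 6240 CPM, 741 CPM and 11382 CPM in the 3 libraries, and in SMG at 4 months to 4894 CPM, 737 CPM and 260 CPM. Within sums the log2 level of members correlated with that of the gut list with a median r of 0.18 and a range of -0.74 to 0.79 (18 degrees of freedom, libraries and depth shared). The members above 0.7 were CAP3_round1_contig_7165 (r = 0.79) and Bot_c6605 (r = 0.75), and Bot_c1751 and Bot_c20048 had 0.69 and 0.66. For the blood cell list the median r was 0.22 with a highest value of 0.70, also for CAP3_round1_contig_7165. The other lists had highest values near these. The median and highest r were 0.27 and 0.71 for sperm and axoneme, 0.03 and 0.72 for muscle and 0.20 and 0.76 for ribosomal proteins. The part of gut, blood cell or other tissue content in the members' values was not tested.

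The rule orders ages within a line and sets no line above another, so line differences were tested. The rule still asks for the same order of ages in every line, which bears on the spread left after the age term. Its minimum of 0.5 CPM in all 9 sums leaves out contigs that are near absent in a line. For these reasons the test is not independent of the rule. That minimum was met by 22611 contigs, while the background shares here are over all tested contigs. An edgeR quasi-likelihood test on the 9 sums, with age as a term and Benjamini-Hochberg adjustment over 43920 contigs, called 3.52% of the contigs at a false discovery rate of 0.10, and 2 of the 83 members. At an unadjusted p under 0.05 it called 18.3% of the contigs and 22 members. Between SB825 and SMG it called 4.95% of the contigs, 2.42% higher and 2.53% lower in SB825, and 4 members, 1 higher and 3 lower in SB825. Between SB825 and SMH it called 1.60% of the contigs and 0 members, and between SMG and SMH 0.478% and 0 members. At an unadjusted p under 0.05 these 2 contrasts had 15 members each, beside 14.4% and 11.5% of the contigs, and DESeq2 called 13 and 12 members, beside 13.6% and 10.4% of the contigs. The shares of members called at the threshold were not far from these backgrounds, and an adjusted p above the threshold does not show that lines had equal levels.

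The member with the widest difference between lines was CAP3_round1_contig_7622, an unnamed contig with 14.9, 42.9 and 47.5 CPM at 4 months, 2 years and 3 years in SB825, 0.580, 2.90 and 4.76 CPM in SMG and 8.91, 12.4 and 16.3 CPM in SMH. All SB825 sums lay above all SMG sums, and its log2 difference of SB825 minus SMG was 3.31 ± 0.47 (SE, n = 3 sums per line, adjusted p = 0.0371 in edgeR). CAP3_round1_contig_2947 had 2.18 to 4.67 CPM in SB825 and 6.33 to 9.75 CPM in SMG without overlap, a difference of -1.91 ± 0.32 (SE, n = 3 sums per line, adjusted p = 0.0492 in edgeR). These were the 2 members called over all lines, with adjusted p = 0.0653 and 0.0855 in edgeR. CAP3_round1_contig_2327 had 2.62 to 4.93 CPM in SB825 and 5.82 to 7.76 CPM in SMG, a difference of -1.43 ± 0.32 (SE, n = 3 sums per line, adjusted p = 0.0897 in edgeR). The sushi-named Bot_c25595 was lower in SB825 than in SMG at each age, though the sums of 0.990 to 4.44 CPM and 2.19 to 7.80 CPM overlapped, with a difference of -1.43 ± 0.33 (SE, n = 3 sums per line, adjusted p = 0.0953 in edgeR). These log2 differences are from the fit on TMM scaling, while the CPM are scaled by totals. By library totals alone they were 3.87, -1.36, -0.863 and -0.889, in the order given here. CAP3_round1_contig_2327 and Bot_c25595 were not past the threshold by library totals, nor without the age term.

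**Figure D5:**
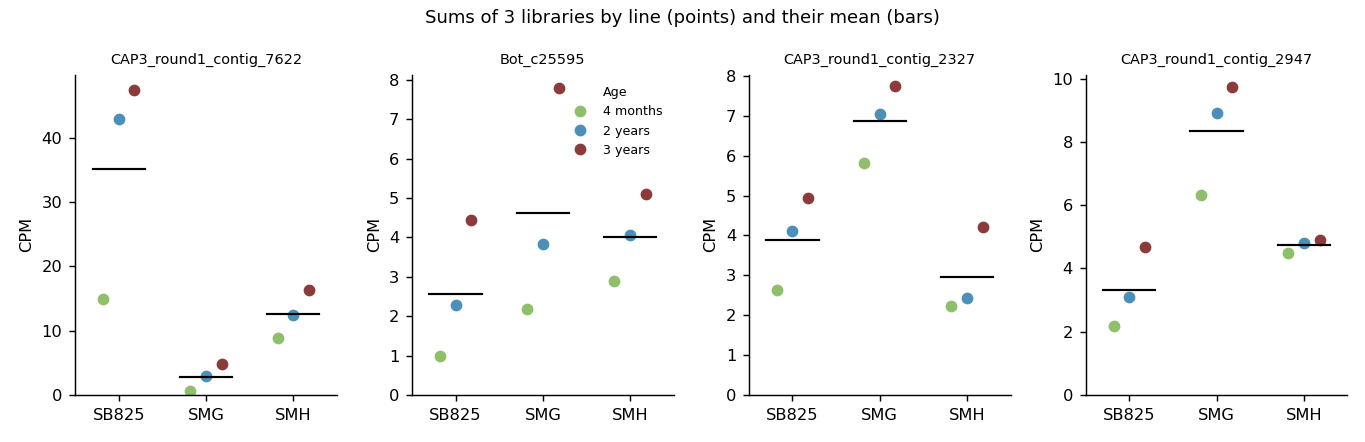
CPM of the 4 contigs called between SB825 and SMG, by line; points are the sums of 3 libraries at 4 months, 2 years and 3 years and bars the mean of the 3 sums. CAP3_round1_contig_7622 lay at 14.9 CPM or more in SB825 and at 4.76 CPM or less in SMG, while the other 3 were lower in SB825 than in SMG at every age. CPM are scaled by totals, while the calls are from the fit on TMM scaling.

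The count between SB825 and SMG depended on the settings. Scaled by library totals alone, which moved the median log2 difference of all contigs to 0.61, against 0.07 under TMM, 9 members were called (8 of them higher in SB825), beside 11.2% of the contigs, and the median over members was 0.22, against -0.32 under TMM. The 4 contigs above kept their sign. Without library 1 of every sum 2 members were called, beside 4.83% of the contigs, and without SMG at 4 months 15 were, beside 8.52%. Because the members have the same order of ages in every line by choice, the spread left after the age term is not independent of the rule, and without that term 5 members had an unadjusted p under 0.05 over all lines, beside 18.7% of the contigs.

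The contrast of 3 years against 4 months was the one the members were chosen on. The edgeR quasi-likelihood test of the 3 sums at 3 years against the 3 at 4 months called 0 of 42493 contigs, a background of 0%, and 0 members at a false discovery rate of 0.10. At an unadjusted p under 0.05 it had 39 of the 83 members, beside 5.94% of the contigs, and DESeq2 called 864 contigs, 2.03% of those tested, and 23 members. Nothing is read from these counts, since the same values picked the members.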

How the data were processed

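Per the labels and the study's methods, poly-A RNA of whole colonies was made into TruSeq libraries and sequenced from both ends. Before mapping, 12 bases were trimmed from read starts, and Bowtie 0.12.7 placed the pairs on assembled ESTs (SAMtools 0.1.18). The deposited values are unnormalised counts per contig that the authors made from these alignments. Every count is an even number. The authors' table of the old and young comparison from DESeq 1.10.1 holds means, fold changes and p-values and was not used. The number of other per-sample columns left unused is 0. Homolog names were taken from the study's supplementary list (names only). Contig sequences, lengths and positions were not used here.

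For each line and age the 3 libraries were added up and scaled to CPM by total. SDs and correlations within sums used log2(CPM + 0.1) of single libraries. Tests used edgeR 4.0.16 (TMM, filterByExpr, robust glmQLFit and glmQLFTest) in R 4.3.3, on 9 sums with line and age terms or on 6 sums by age, with Benjamini-Hochberg adjustment over all tested contigs and a threshold of 0.10, and the SE was taken from the F statistic. DESeq2 1.42.0 was an alternative. The functions were tested on simulated data, in which 200 contigs were set higher in SB825 and tested for SB825 minus SMH. With a small spread between sums 200 of them were called, with 15 false calls. With the spread estimated from these data 0 of them were called, at a median fitted log2 difference of 2.03. Counts of 0 members in the line contrasts therefore do not show equal levels. P-values measure the spread between these sums, which are 1 per line and age.

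The members, the name lists, the marker lists and the tests were chosen with earlier results of these data known. Named are the 10 members ranked first, the 5 with the highest mean CPM, up to 4 per name list with 2 or more members, the 3 ranked last, up to 3 called per line contrast and direction, the 2 with the largest and the 2 with the smallest share reached by 2 years, and the member with the widest spread between libraries, 30 in all. The contigs nearest to the minimum and a few others named beside this rule were chosen after their values were seen. The scaling, the minimum, the filter, the tool, the unit of replication, the age term and each left-out library number were varied.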

Additional observations from a re-analysis of the deposited data

How the results depend on the processing

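The membership depended on the scaling, the minimum and the libraries. Against 83 contigs, 188 had the rising order in all lines under TMM scaling, 165 under median-of-ratios factors, 44 with a minimum of 1 CPM and 297 with no minimum above 0. Without library 1, 2 or 3 of every sum 78 to 107 contigs had it. Of the 83 members, 40 kept the order and the minimum under TMM, 42 under median-of-ratios, 44 at 1 CPM, and 42 to 50 when a library number was left out. Leaving out SMG at 4 months, an alternative chosen after seeing the data, gave 238 contigs. The median log2 ratios of the members were 0.99, 1.47 and 0.88 in SB825, SMG and SMH, against 1.11, 1.54 and 1.14 under TMM and 1.09, 1.39 and 1.14 under median-of-ratios, and the libraries of 4 members were in full order in all lines under TMM, against 3.

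Members called between lines were 2 over all lines, 4 for SB825 minus SMG, 0 for SB825 minus SMH and 0 for SMG minus SMH. In that order these stand beside 3.52%, 4.95%, 1.60% and 0.478% of the contigs. Omitting the age term gave 1, 2, 1 and 0, beside 6.90%, 7.77%, 3.23% and 1.76%. DESeq2 gave 25, 22, 13 and 12, beside 20.5%, 20.9%, 13.6% and 10.4%. The data without SMG at 4 months gave 11, 15, 10 and 3, beside 9.41%, 8.52%, 10.1% and 0.952%. Library totals alone gave 9 for SB825 minus SMG, beside 11.2%. Without library 1, 2 or 3 of every sum the counts were 2 over all lines, 2 to 4 for SB825 minus SMG and 0 for the other contrasts. The shares of the contigs were then 3.32% to 3.44% over all lines and 4.67% to 5.05% for SB825 minus SMG. They were 1.53% to 1.63% for SB825 minus SMH and 0.316% to 0.518% for SMG minus SMH. Over all contigs the line test called 1544, against 3029 without the age term, 3742 by library totals, 9021 with DESeq2 and 4214 without SMG at 4 months. For SB825 minus SMG these counts were 2172, against 3412, 4938, 9168 and 3813, for SB825 minus SMH 704, against 1419, 1637, 5976 and 4512, and for SMG minus SMH 210, against 775, 191, 4552 and 426. DESeq2 called 23 members for 3 years minus 4 months, beside 2.03% of the contigs, against 0 members and 0% in edgeR. The cause of these changes was not tested. Of the 36 values of the 4 contigs called for SB825 minus SMG, 28 stayed past the threshold and 8 of Bot_c25595 (5) and CAP3_round1_contig_2327 (3) did not, with no change of sign.

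Whether the replicate numbers pair the libraries is not given. Deviations of libraries of the same number at 3 years and 4 months correlated with r of -0.081 to 0.33 over 9 pairs, which does not settle it. Fitted on single libraries with a replicate block, 50 members were called over all lines, beside 68.6% of the contigs. For SB825 minus SMG 39 were called, beside 55.2%, for SB825 minus SMH 38, beside 46.2%, and for SMG minus SMH 34, beside 42.4%. For 3 years minus 4 months, on which the members were chosen, 83 were called, beside 50.5%. Over all contigs these fits called 27497, 22100, 18497, 16980 and 18958, since they take libraries of a sum as replicates.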
